A study of Mus musculus with 360 samples.

Results

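Genes of the extracellular matrix, of the proteases and protease inhibitors that remodel it, and of the integrins that bind it were followed in 5 tissues of female mice exposed to 1 of 2 dichlorobenzenes. The members are all probes whose symbol begins as a numbered collagen (Col), laminin (Lama, Lamb, Lamc), matrix metalloproteinase (Mmp), Timp, Adam, integrin subunit (Itga, Itgb, Itgd), Fbn, Fn1, Thbs or Sparc, with Mmp12 and its 3 probes left out. This gave 39 of 3154 probes, for 36 of 2756 genes; the rule goes by symbol and uses no measured value. The rule also takes in Itgb1bp1 and Itgb1bp2, which encode cytoplasmic proteins that bind the integrin beta 1 tail and are not integrins themselves.

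The mice were B6D2F1/Crl (BDF-1) females, aged 9 weeks per the labels. There were 2 series of animals. In the first, 37 animals received 1,2-dichlorobenzene (1,2-DCB, the chlorines on neighbouring ring carbons) at 0, 1, 10, 30, 100 or 250 ppm. In the second, 35 animals received 1,4-dichlorobenzene (1,4-DCB, the second chlorine on the opposite carbon) at 0, 1, 10, 50, 150 or 400 ppm. The animals carried no engineered allele named in the labels, and each series had its own 0 ppm controls. Heart, kidney, liver (left lobe), lung and ovary were collected on study day 5, each library from 1 animal, and RNA was read with TempO-Seq, in which pairs of short probes that ligate on a target RNA are counted.

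Of 360 libraries, the 326 that the labels mark as used in the submitters' analysis were taken here. In the heart and ovary there were 10 controls per compound, 5 animals at most concentrations and 7 at 250 ppm. In the lung there were 10 controls per compound and 4 to 6 animals per concentration. In the liver 9 animals of the 1,2-DCB series and 7 of the 1,4-DCB series were unexposed, only 2 animals were kept at 1 ppm 1,2-DCB and 4 to 6 in other groups. The kidney was thinnest, with 5 and 6 controls, 2 animals at 100 ppm and 3 at 30 ppm 1,2-DCB. Median depth was 12267754 counts in the heart, 12488657 in the kidney, 19434619 in the liver, 20075258 in the lung and 5926930 in the ovary, and the shallowest library held 4341679. The members together took a median of 0.405% of counts in the heart, 0.573% in the kidney, 0.412% in the liver, 0.961% in the lung and 1.17% in the ovary. The tissue labels were checked against defining genes: in unexposed 1,2-DCB controls 6 hepatocyte genes summed to at least 167840 CPM (counts per 1000000 of the scaled library size) in the liver and at most 2380 elsewhere, 3 cardiac muscle probes to at least 212492 in the heart and at most 540 elsewhere, and 8 ovary genes to at least 5619 in the ovary and at most 37.1 elsewhere. The kidney tubule transporter Slc22a6 lay at 1391 CPM or more in the kidney and at 1.22 or less elsewhere, and the panel carried no probe of the lung epithelium list.

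The extracellular matrix is the protein scaffold between cells. Fibrillar collagens such as types I, III and V give tissue its tensile strength and are made mainly by fibroblasts and, in the liver, by stellate cells, while type IV collagen and laminins form the sheet-like basement membranes under epithelia and around vessels and muscle cells. Matrix metalloproteinases and ADAM proteases cut matrix and cell-surface proteins, TIMPs inhibit them, and integrins, each a pair of an alpha and a beta chain, tie cells to the matrix or, on leukocytes, to other cells.

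The type IV collagen genes Col4a1 and Col4a2 fell in the heart at the highest concentration of both compounds, and they are arranged head to head. The 300-base windows from 250 bases before to 50 bases after each start site, from RefSeq on GRCm38.p6, are shown because they overlap: Col4a1 lies on the minus strand at chr8:11312777-11313076 and Col4a2 on the plus strand at chr8:11312555-11312854. The start sites used for these windows, at 11312826 and 11312805, are 21 bases apart, while the RefSeq gene record of Col4a1 runs to 11312889. The capitals mark the 78 bases that the windows share, each read 5′ to 3′ on its own strand.
Col4a1: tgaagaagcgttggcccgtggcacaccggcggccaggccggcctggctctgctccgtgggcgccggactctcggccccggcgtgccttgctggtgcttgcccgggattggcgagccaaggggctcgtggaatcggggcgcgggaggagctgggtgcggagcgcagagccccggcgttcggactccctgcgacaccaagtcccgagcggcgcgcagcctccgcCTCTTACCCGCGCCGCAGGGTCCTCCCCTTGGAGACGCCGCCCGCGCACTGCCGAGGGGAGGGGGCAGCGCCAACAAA
Col4a2: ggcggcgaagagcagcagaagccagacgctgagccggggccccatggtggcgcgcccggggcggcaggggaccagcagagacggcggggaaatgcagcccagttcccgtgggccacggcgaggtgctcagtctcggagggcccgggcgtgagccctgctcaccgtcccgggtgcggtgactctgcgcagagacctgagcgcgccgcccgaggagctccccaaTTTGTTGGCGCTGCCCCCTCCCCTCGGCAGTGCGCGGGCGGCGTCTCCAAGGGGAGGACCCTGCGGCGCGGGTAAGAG

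Col1a2 (plus strand, chr6:4505368-4505667) and Timp1 (plus strand, chrX:20869916-20870215) are shown as members called higher both in the liver at 250 ppm 1,2-DCB and in the heart at 150 ppm 1,4-DCB. Capitals mark CCAAT or its reverse complement ATTGG, 2 copies in Col1a2 and 1 in Timp1. Col3a1 and Timp3 were called higher in both groups too, and their windows, not shown, hold 0 copies.
Col1a2: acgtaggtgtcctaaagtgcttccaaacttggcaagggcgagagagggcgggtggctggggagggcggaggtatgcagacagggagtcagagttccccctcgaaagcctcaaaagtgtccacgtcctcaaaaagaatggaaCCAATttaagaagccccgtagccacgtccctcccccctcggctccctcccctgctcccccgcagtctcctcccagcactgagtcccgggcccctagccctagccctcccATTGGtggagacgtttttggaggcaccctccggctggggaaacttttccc
Timp1: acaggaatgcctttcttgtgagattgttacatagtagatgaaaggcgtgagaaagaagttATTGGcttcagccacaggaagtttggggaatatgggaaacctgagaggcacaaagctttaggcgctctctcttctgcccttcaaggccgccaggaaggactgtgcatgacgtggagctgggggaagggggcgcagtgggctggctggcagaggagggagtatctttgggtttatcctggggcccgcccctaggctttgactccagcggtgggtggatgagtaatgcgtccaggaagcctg
RefSeq windows were found for 23 of the 36 genes, 24 windows in all. On either strand, CCAAT was present in 9 of the 24 against 37.4% of 32851 windows genome-wide, the GC box GGGCGG in 18 against 35.7%, the AP-1 sequence TGANTCA in 2 against 7.81% and TATAAA in 2 against 13.6%. A match describes letters only and shows no binding.

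**Figure D1:**
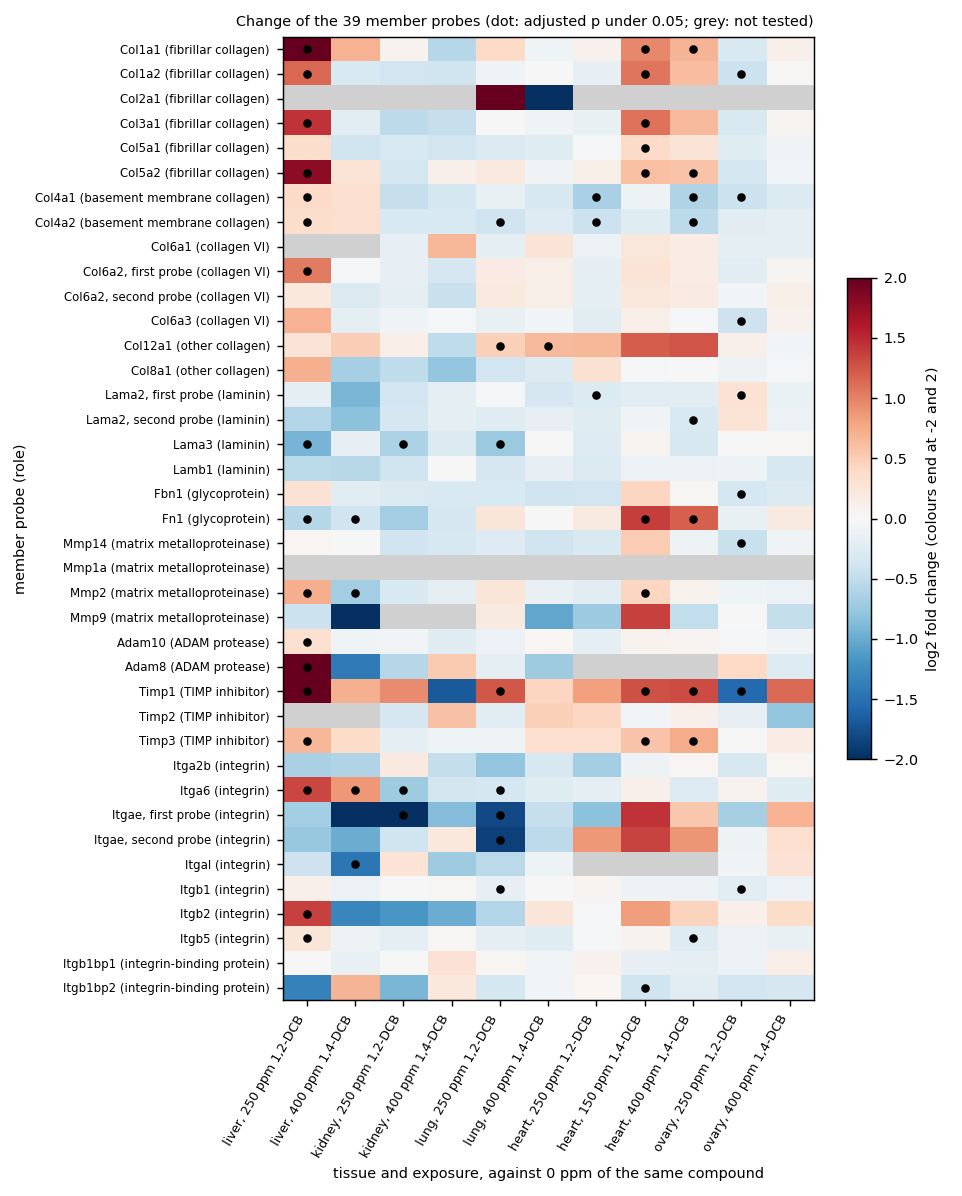
Log2 fold change of the 39 member probes (rows, grouped by role) at the highest concentration of each compound, and at 150 ppm 1,4-DCB in the heart, against 0 ppm of the same compound in each tissue (columns). Dots mark an adjusted p under 0.05 and grey cells were not tested; the dots are densest in the liver at 250 ppm 1,2-DCB (17), followed by the heart at 150 ppm (10) and 400 ppm 1,4-DCB (9).

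The most members were called in the liver at 250 ppm 1,2-DCB, where 15 of 35 tested probes rose and 2 fell, led by Col1a1, Col5a2, Col3a1, Timp1 and Itga6. Throughout, a probe was called changed at an adjusted p under 0.05 from edgeR's quasi-likelihood test with Benjamini-Hochberg adjustment over all probes tested in the tissue, and each concentration was compared with 0 ppm of its own compound, so concentrations of a compound share their controls. The 17 called are 48.6% of the members tested, a share close to the 49.8% of all probes tested there. By direction, 25.1% of all probes rose and 24.6% fell. The members' median change was 0.29 on the log2 scale against -0.03 for all probes. At lower 1,2-DCB concentrations the members gave 1 higher and 2 lower calls at 30 ppm (11.7% of all probes) and 1 lower call at 100 ppm (18.8%).

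At 400 ppm 1,4-DCB in the liver 1 member rose and 3 fell of 35, 11.4%, against 31.6% of all probes (18% higher, 13.6% lower), with a median of -0.22 against -0.03. Neither edgeR nor DESeq2 called a member at the 4 lower 1,4-DCB concentrations, where by edgeR 1.68% of probe tests were; at an unadjusted p under 0.05 there were 3, 2, 2 and 1 members in order of concentration.

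In the lung at 250 ppm 1,2-DCB 2 members rose and 6 fell of 38, against 32.6% of all probes (17.6% higher, 15% lower). The lung members also fell at lower 1,2-DCB concentrations, 2 at 10 ppm (background 1.89%) and 6 at 30 ppm (4.57%), and at 100 ppm 1 rose and 2 fell (6.53%). With 400 ppm 1,4-DCB 1 lung member rose (2.61%). At the 4 lower 1,4-DCB concentrations no lung member was called by edgeR or DESeq2 (0.435% of probe tests by edgeR), and 0, 0, 1 and 0 passed an unadjusted p of 0.05.

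In the heart 3 of 35 members fell at 250 ppm 1,2-DCB (8.88% of all probes changed), 1 fell at 10 ppm (0.978%), 3 at 30 ppm (2.04%) and 1 at 100 ppm (0.733%). With 1,4-DCB, 9 heart members rose and 1 fell at 150 ppm, against 27.2% of all probes (15.3% higher, 11.9% lower), and 5 rose and 4 fell at 400 ppm, against 13% (8.84% higher, 4.12% lower). Their median change was 0.22 at 150 ppm against 0.02 for all probes. At 400 ppm it was 0.05 against 0.01. For 1, 10 and 50 ppm it was 0.20, 0.06 and 0.17 against 0.006, 0.009 and 0.004. At 1, 10 and 50 ppm neither edgeR nor DESeq2 called a heart member, and 0, 4 and 2 passed an unadjusted p of 0.05.

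In the ovary at 250 ppm 1,2-DCB 1 member rose and 7 fell of 37, against 15.9% of all probes (8.22% higher, 7.70% lower), with a median of -0.16 against -0.03. In the kidney 3 of 36 members were called at 250 ppm, all lower (11.7% of all probes), with a median of -0.32 against -0.02. At 400 ppm 1,4-DCB edgeR and DESeq2 called no member in the kidney (1.03% of all probes by edgeR; 3 members at an unadjusted p under 0.05) or in the ovary (0.479%; 5 members).

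At the lower concentrations edgeR called no member in the kidney (0.293% of probe tests for 1,2-DCB and 0.119% for 1,4-DCB) or the ovary (0.0369% and 0.00921%). At an unadjusted p under 0.05 the kidney had 0, 1, 3 and 1 members for 1,2-DCB and 5, 6, 5 and 7 for 1,4-DCB, in order of concentration. The ovary had 6, 6, 5 and 6 and then 1, 0, 7 and 0. DESeq2 called 2 members for 1,2-DCB and 1 for 1,4-DCB in the kidney, and 2 and 0 in the ovary. All 1,4-DCB kidney comparisons share 6 controls, among them animal 2, which stood far apart in Col1a1, Col1a2, Col3a1 and Timp1, as given below. Its part in the unadjusted counts was not tested. Leaving out single libraries gave 0 to 2 called members at 400 ppm and 0 to 1 over the lower 1,4-DCB concentrations.

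Over all exposed groups and tissues 30 of the 38 member probes tested in any tissue were called at least once (78.9%), close to the 74.2% of all probes tested. In 3 or more tissues 9 were called (23.7%), beside 19.7% of all probes. Col4a1 had the most calls, 7, followed by Lama3 and Timp1 with 5 each. The 9 without a call were the collagen probes of Col2a1, Col6a1 and Col8a1, the laminin beta chain Lamb1, the platelet integrin Itga2b, the integrin-binding Itgb1bp1, the gelatinase Mmp9, the inhibitor Timp2, and Mmp1a, which was tested in no tissue.

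Red cell genes fell with 250 ppm 1,2-DCB in all 5 tissues. The summed level of 6 red cell probes, mostly globin, went from a control median of 11048 to 496 CPM in the liver, from 416756 to 41336 in the lung, from 92633 to 10008 in the heart, from 40454 to 4435 in the kidney and from 6651 to 622 in the ovary. Of the tested probes, 5 of 5 fell in the liver, 6 of 6 in the lung, 5 of 6 in the heart, 5 of 5 in the kidney and 3 of 4 in the ovary. No red cell probe was called at 400 ppm 1,4-DCB. The part of this shift in the members' changes at 250 ppm was not tested.

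The fibrillar collagens rose in the liver at 250 ppm 1,2-DCB, in 4 of the 5 tested (Col1a1, Col1a2, Col3a1 and Col5a2). Col1a1, a chain of type I collagen, lay between 6.40 and 25.4 CPM with a median of 11.5 in the 9 controls. The 6 exposed animals lay at 14.3, 23.2, 26.6, 82.1, 105 and 162 CPM. The lowest 2 lay within the control range, the third just above it and the other 3 far above it. The fold change was 5.73 (log2 2.52, SE 0.32, adjusted p 1.76e-09), and without the highest animal, 503, it was 2.05 on the log2 scale (adjusted p 8.91e-08).

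Col3a1, the chain of type III collagen, was at 6.09 to 13.8 CPM in controls (median 10.7) and at 8.02, 10.7, 15.4, 41.4, 42.1 and 64.1 CPM in exposed livers, a rise of 1.44 (SE 0.25, adjusted p 1.93e-06). Col5a2, a chain of type V collagen, went from a control median of 10.4 CPM (7.35 to 14.1) to 30.9 (7.4 to 79.2), a log2 change of 1.78 (SE 0.24, adjusted p 6.33e-09). Col1a2, the other type I chain, went from 3.15 (0.969 to 4.41) to 5.54 CPM (2.49 to 14.3), a change of 1.15 (SE 0.28, adjusted p 0.00042). In each of these genes animals 503, 507 and 508 were above every control, while the other 3 exposed livers lay within the control range or close above it.

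**Figure D2:**
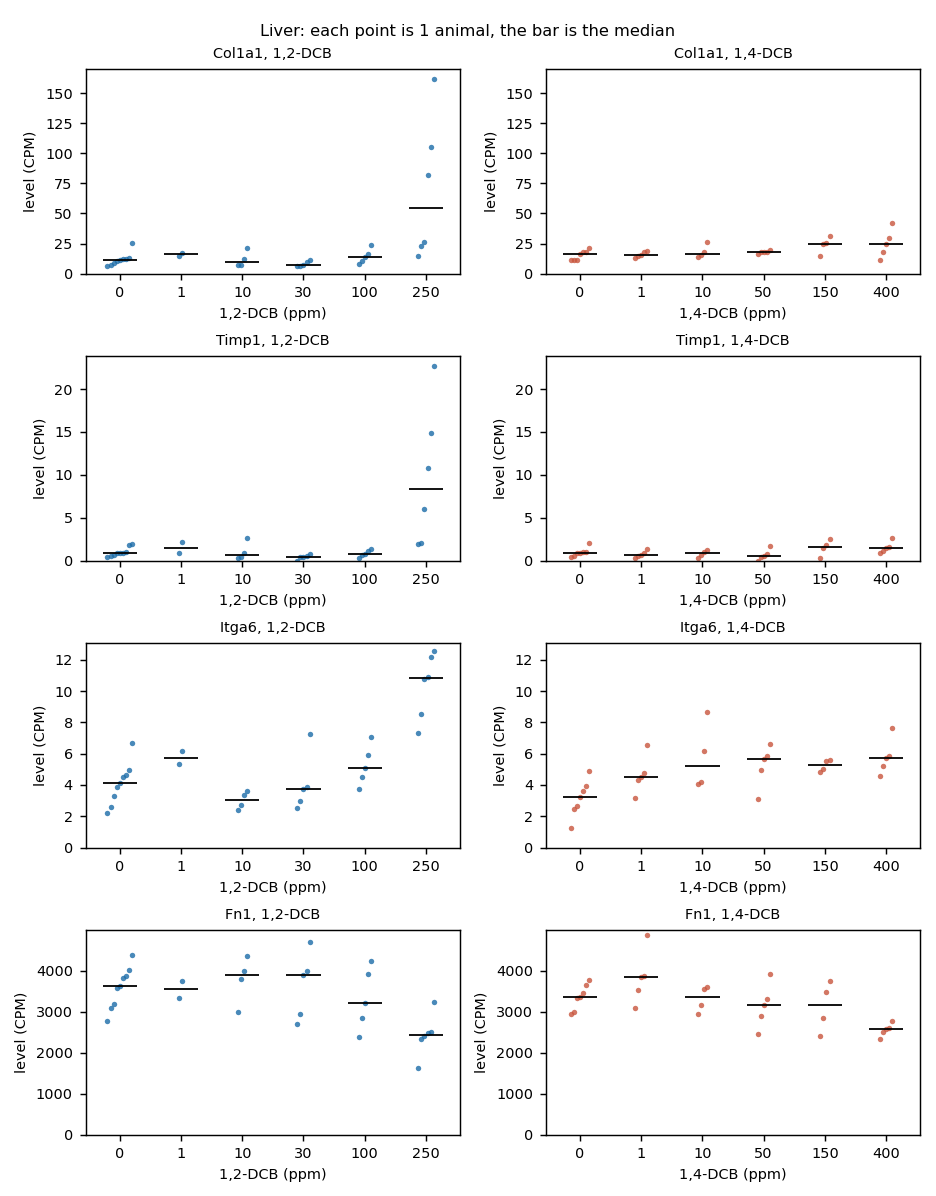
Levels in CPM (y axes, linear from 0) of Col1a1, Timp1, Itga6 and Fn1 in the liver at each concentration in ppm (x axes, evenly spaced) of 1,2-DCB (left) and 1,4-DCB (right); each point is 1 animal and the bar the median. At 250 ppm 1,2-DCB Col1a1 splits between 14.3 and 162 CPM, while all 6 Itga6 values lie above the 9 controls.

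Markers of other cells moved in the same livers. Summed fibroblast and stellate cell markers (5 genes) were at 59.9 to 80.1 CPM in controls (median 73.4) and at 60.2 to 197 (median 119.4) at 250 ppm. Of these 5, Lum (1.19) and Lrat (0.68) rose and Thy1 fell (-0.72). Macrophage markers (3 genes) went from a median of 417 CPM (305 to 1614) to 939 (278 to 1418), with Cd68 up by 1.68, and the platelet gene Pf4 from 0.621 (0.406 to 1.42) to 6.29 CPM (0.113 to 16.6). Endothelial markers fell from 143.03 (131.4 to 169) to 100.5 CPM (86.3 to 108.5), with 5 of 5 tested probes lower, and 4 of 6 hepatocyte genes fell. Of the red cell probes, the more abundant one of Hba-a1 fell by 3.28, that of Hbb-bs by 3.00 and that of Alas2 by 2.25. The pancreatic gene Amy2a5 rose by 6.18. In bulk tissue, fewer cells of a type and less RNA per cell cannot be told apart, and the part of these markers in the collagen result was not tested.

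In the liver at 400 ppm 1,4-DCB no fibrillar collagen was called. Col1a1 was at 11.5, 18, 24.3, 29.8 and 42.5 CPM against 10.9 to 21.4 in 7 controls (median 16.4), a difference of 0.70 (SE 0.35, adjusted p 0.128). The fibroblast marker sum was lower there, at 49.2 to 62.4 CPM (median 50.9) against 58.6 to 79.5 (median 73.5).

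In the heart the fibrillar collagens rose with 1,4-DCB. At 150 ppm Col1a1 was at 277, 330, 448, 475 and 899 CPM against 197 to 313 in 10 controls (median 260), a change of 0.96 (SE 0.23, adjusted p 0.00253). Col3a1 was at 140, 176, 211, 254 and 538 CPM against 91.1 to 160 (median 118.03), a change of 1.08 (SE 0.26, adjusted p 0.00234). Of the 5 animals 4 exceeded every control in each gene, and animal 405 was the highest in both. Col1a2 was at 18.8, 20.3, 31.2, 37.5 and 61.8 CPM against 11.8 to 24.6 (median 14.4), a change of 1.08 (SE 0.27, adjusted p 0.00327). Col5a1 (0.38) and Col5a2 (0.60), which are members too, were also called. These 2 fall outside the limit on how many called genes are named, which is given with the data processing below. They were chosen for naming after their values were seen. Without animal 405 none of the 10 member calls at 150 ppm held (edgeR adjusted p 0.0517 to 0.342), and without animal 404 there were 15.

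With 400 ppm Col1a1 was at 273, 294, 296, 503 and 634 CPM, a change of 0.68 (SE 0.24, adjusted p 0.044), and Col5a2 changed by 0.56 (SE 0.19, adjusted p 0.0422). Both calls were lost when animal 503 of that group was left out, which left only Col4a1 and Col4a2 of the 9. That of Col1a1 was also lost with DESeq2, and each of the 2 on leaving out any of 8 of the 15 libraries. Fibroblast markers (5 genes) summed to 354 to 529 CPM in the controls (median 423) and to 461 to 1189 (median 803) at 150 ppm. At 400 ppm they summed to 439 to 1052 (median 628) and at 1 ppm to 463 to 785 (median 562). At 10 and 50 ppm the sums were 459 to 951 (median 533) and 432 to 957 (median 536). No member was called at 1, 10 or 50 ppm. Cardiac muscle markers (3 probes) summed to 250226 to 301108 CPM in controls (median 284811). They summed to 53222 to 227550 at 150 ppm (median 204392) and to 152810 to 275040 at 400 ppm (median 241402). Their medians at 1, 10 and 50 ppm were 236568, 237581 and 255375 CPM. Both marker medians were thus shifted from the controls at every 1,4-DCB concentration. The part of these shifts in the collagen values was not tested.

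In the lung the fibrillar collagen Col3a1 was called lower at 10 and 30 ppm 1,2-DCB, and Col1a1 and Col5a1 at 30 ppm. Col3a1 was at 107.7, 128.6, 128.9, 132.6 and 163 CPM at 10 ppm and at 90.1, 108.4, 117.6, 132.3 and 209 CPM at 30 ppm, against 159 to 392 in 10 controls (median 201), a change of -0.73 (SE 0.20) at each (adjusted p 0.0334 and 0.0144). At 30 ppm Col1a1 was at 182, 232, 362, 368 and 380 CPM against 299 to 827 (median 472), a change of -0.69 (SE 0.21, adjusted p 0.044). Col5a1 fell by 0.65 there (SE 0.15, adjusted p 0.00219). Ranges overlapped in all 3 genes, and neither Col1a1 nor Col3a1 was called at 100 or 250 ppm. The highest Col3a1 control, animal 9, stood apart from the others, which lay at 159 to 238 CPM. Member calls at 10 ppm went from 2 to 0 without animal 201.

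The clock output gene Dbp, whose RNA swings over the day, was higher in the same exposed lungs, at 402 to 536 CPM at 10 ppm and 392 to 526 at 30 ppm against 17.3 to 151.6 in controls. With log CPM of Dbp as a covariate none of the 11 member calls at the lower 1,2-DCB concentrations in the lung held by edgeR. Collection times are not in the labels, so time and exposure cannot be told apart here.

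In the ovary at 250 ppm 1,2-DCB Col1a2 was lower, at 111.9 to 162 CPM in 7 animals (median 130.9) against 152.4 to 267 in 10 controls (median 169), a change of -0.43 (SE 0.14, adjusted p 0.0313). Fibroblast markers summed to 1915 to 2712 CPM (median 2184) against 2086 to 4325 (median 2831), and macrophage markers to 1904 to 5396 (median 2488) against 1122 to 3629 (median 1486). Dbp was at 243 to 494 CPM against 86.4 to 272. With Dbp as a covariate no member was called in this comparison, and the Col1a2 call was lost on leaving out any of 7 of the 17 libraries.

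Basement membrane collagen fell in the heart with both compounds. Col4a1 and Col4a2, whose chains assemble together into the type IV collagen network, shared the divergent promoter shown above. In the 10 controls of the 1,2-DCB series Col4a1 was at 227 to 435 CPM (median 271), and at 250 ppm the 7 hearts lay at 164 to 213 CPM (median 181), below every control. The fold change was 1.56 downward (log2 -0.64, SE 0.11, adjusted p 1.55e-05). Col4a2 was at 333 to 538 CPM in controls (median 396) and at 255 to 344 (median 295) at 250 ppm, a change of -0.44 (SE 0.09, adjusted p 0.00101).

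Col4a1 was lower at every 1,2-DCB concentration from 10 ppm upward. At 10 ppm it was at 178, 188, 199, 201 and 203 CPM, below every control (-0.58, SE 0.12, adjusted p 0.00373). At 30 ppm it was at 147.8, 181, 205, 213 and 235 CPM (-0.55, SE 0.12, adjusted p 0.00443). At 100 ppm it was at 178, 186, 206, 216 and 246 CPM (-0.48, SE 0.12, adjusted p 0.0274). The 1 ppm animals, at 246, 293, 299, 300 and 318 CPM, lay within the control range. Col4a2 did not pass at 10 ppm (-0.33, SE 0.11, adjusted p 0.147), 30 ppm (-0.33, SE 0.11, adjusted p 0.0809) or 100 ppm (-0.14, SE 0.10, adjusted p 0.812).

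With 400 ppm 1,4-DCB Col4a1 was at 198, 209, 226, 244 and 258 CPM against 313 to 410 in the 10 controls of that series (median 340), a change of -0.60 (SE 0.12, adjusted p 0.000531). Col4a2 was at 321, 345, 405, 416 and 429 CPM against 502 to 597 (median 555), a change of -0.53 (SE 0.11, adjusted p 0.00061). In both genes the exposed and control ranges were apart, and both calls held when any single library of the comparison was left out. The controls of the 2 series differed in Col4a2 (1,2-DCB minus 1,4-DCB series -0.43, SE 0.08, adjusted p 0.00122), and the hearts at 400 ppm overlapped the range of the 1,2-DCB controls.

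**Figure D3:**
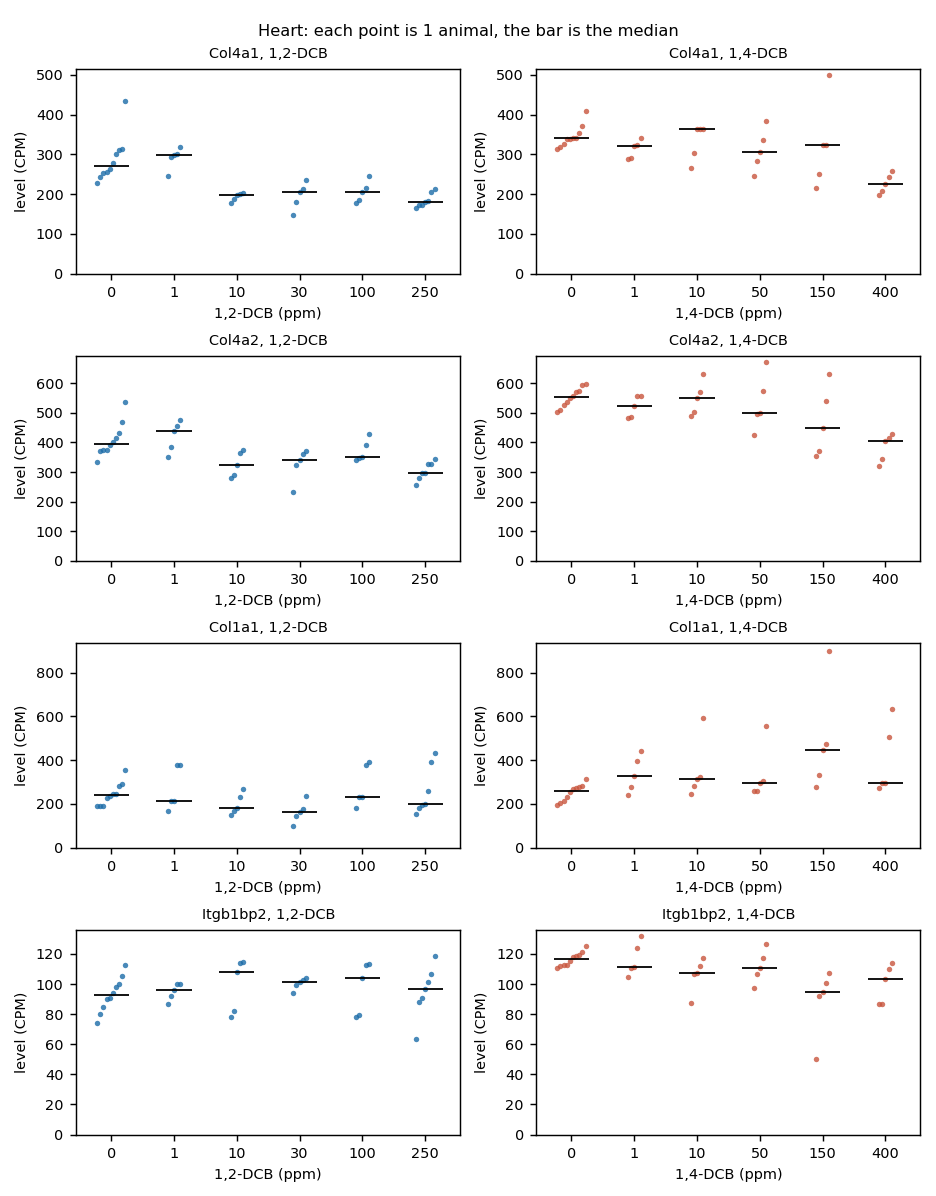
Levels in CPM (y axes, linear from 0) of Col4a1, Col4a2, Col1a1 and Itgb1bp2 in the heart at each concentration in ppm (x axes, evenly spaced) of 1,2-DCB (left) and 1,4-DCB (right); each point is 1 animal and the bar the median. Col4a1 lies below every control of its series at 10 and 250 ppm 1,2-DCB and at 400 ppm 1,4-DCB, and Col1a1 spreads up to 899 CPM at 150 ppm 1,4-DCB.

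Dbp also stood apart in these hearts, at 224 to 337 CPM at 10 ppm, 192 to 371 at 30 ppm, 130 to 303 at 100 ppm and 110 to 418 at 250 ppm, against 21.7 to 111.02 in the 1,2-DCB controls. For 1,4-DCB it was at 160 to 360 CPM at 400 ppm, 53 to 99.3 at 150 ppm and 27 to 90.5 in controls. With Dbp as a covariate Col4a1 and Col4a2 stayed called at 250 and 400 ppm, while none of the 5 calls at the lower 1,2-DCB concentrations did. The Col4a1 call at 100 ppm was also lost on leaving out any of 5 of the 15 libraries. Endothelial markers (6 probes of 5 genes) summed to 416 to 581 CPM at 250 ppm against 456 to 570, with none called, and to 450 to 533 at 400 ppm 1,4-DCB against 469 to 573, with Kdr lower by 0.48.

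Type IV collagen in the liver at 250 ppm 1,2-DCB moved the other way. Col4a1 was at 25.3 to 64.4 CPM (median 38.1) against 25 to 45 (median 31.1), a change of 0.38 (SE 0.16, adjusted p 0.0454), and Col4a2 at 32.5 to 70.02 (median 49.5) against 29.7 to 59.1 (median 37.5), a change of 0.36 (SE 0.13, adjusted p 0.0206). The Col4a1 call was lost on leaving out any of 9 of the 15 libraries and under 4 of 7 alternatives (all 360 libraries, same-compound fits, no filter on low counts, and dividing 59 other probes by a common factor their counts share). That of Col4a2 was lost on leaving out any of 3 libraries and under the first 2 of these; the highest adjusted p came without animal 503 (0.311 and 0.136). In the lung Col4a2 fell by 0.39 at 250 ppm (SE 0.14, adjusted p 0.0215), with values of 453 to 1266 CPM (median 768) against 784 to 1229 (median 1078), a call lost on leaving out any of 3 of the 16 libraries (adjusted p up to 0.12, without animal 507), with all 360 libraries and with Dbp as a covariate. In these lungs the endothelial markers Kdr (-0.41), Tek (-0.29) and Pecam1 (-0.34) also fell, and all 6 endothelial probes summed to 1330 to 1877 CPM (median 1526) against 1510 to 2404 (median 1894). In the ovary Col4a1 was at 423 to 637 CPM (median 576) against 462 to 1010 (median 742) at 250 ppm (-0.44, SE 0.16, adjusted p 0.0482), a call lost on leaving out any of 14 of the 17 libraries.

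Laminins are the other main basement membrane protein, each a trimer of an alpha, a beta and a gamma chain. Lama3, the alpha chain of the laminins of epithelial anchoring sites, fell in the lung at 250 ppm 1,2-DCB to 250 to 374 CPM (median 279) from 419 to 536 in 10 controls (median 485), with no overlap (-0.74, SE 0.09, adjusted p 4.51e-10). It was lower at 30 ppm, at 277, 355, 406, 445 and 452 CPM (-0.33, SE 0.09, adjusted p 0.0181), and at 100 ppm, at 321, 374, 379, 399 and 436 CPM (-0.35, SE 0.09, adjusted p 0.00913). The steps between concentrations were not tested, and the calls at 30 and 100 ppm were lost with Dbp as a covariate. In the lungs at 250 ppm, where the red cell sum and 3 of 6 endothelial probes were lower, the part of those shifts was not tested. Lama3 fell at 250 ppm in the kidney too, at 43.9 to 75.5 CPM (median 58.7) against 60.8, 74.2, 97.7, 102 and 111.3 (-0.63, SE 0.17, adjusted p 0.011), a call lost without control animal 8 (adjusted p 0.0548). In the liver it went to 0.904 to 3.03 CPM (median 1.94) from 1.60 to 5.00 (median 3.68), a change of -0.93 (SE 0.29, adjusted p 0.00565).

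Lama2, the alpha chain of muscle and nerve basement membrane, has 2 probes. In the heart at 250 ppm the first fell from 41 to 56.1 CPM (median 50.2) to 31.8 to 49.5 (median 39.9; -0.27, SE 0.07, adjusted p 0.0119), a call lost without animal 501, and the second was not called. The second fell with 400 ppm 1,4-DCB, by 0.31 (SE 0.10, adjusted p 0.0238), a call lost on leaving out any of 4 of the 15 libraries. In the ovary at 250 ppm the first probe was the only member that rose, at 66.9 to 98.3 CPM (median 74.9) against 44.9 to 84.1 (median 59.96; 0.28, SE 0.10, adjusted p 0.039). That call was lost with Dbp as a covariate, in the same-compound fit and on leaving out any of 7 of the 17 libraries.

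Collagen VI forms beaded filaments near cell surfaces. Its Col6a2 probes did not always move alike. The first rose in the liver at 250 ppm from 0.881 to 2.71 CPM (median 1.19) to 1.07 to 4.86 (median 3.04; 1.04, SE 0.31, adjusted p 0.00387), while the second changed by 0.21 (SE 0.24, adjusted p 0.494). In the heart at 30 ppm 1,2-DCB both fell, the first to 21.3, 31.7, 32.1, 34 and 37.4 CPM from 38.2 to 56.1 (median 44.2; -0.54, SE 0.13, adjusted p 0.0153) and the second by 0.45 (SE 0.12, adjusted p 0.0199). Both heart calls were lost without animal 305 and with Dbp as a covariate. In the ovary at 250 ppm Col6a3, another collagen VI chain, was among the 7 members called lower, at 67.8 to 99.3 CPM. That call was lost with Dbp as a covariate and without animal 506R.

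Col12a1, a fibril-associated collagen, rose in the lung at the highest concentration of each compound. With 400 ppm 1,4-DCB its levels were 29.6, 34.8, 36.1, 53 and 55.4 CPM against 17.1 to 35.3 (median 26.2; 0.65, SE 0.17, adjusted p 0.0234), a call lost on leaving out any of 3 of the 15 libraries. At 250 ppm 1,2-DCB it was at 22.8 to 67 CPM (median 30.8) against 20.9 to 33.9 (median 26.9; 0.48, SE 0.17, adjusted p 0.0208), a call lost without animal 506R (adjusted p 0.332) and in the same-compound fit.

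Fibronectin, encoded by Fn1, is a large adhesive glycoprotein that hepatocytes secrete into plasma and fibroblasts deposit in tissue. It fell in the liver with both compounds. At 250 ppm 1,2-DCB it was at 1614 to 3230 CPM (median 2440) against 2782 to 4392 (median 3632; -0.57, SE 0.13, adjusted p 0.000132). With 1,4-DCB at 400 ppm it was at 2340, 2501, 2566, 2612 and 2770 CPM against 2933 to 3785 (median 3352), with no overlap (-0.39, SE 0.14, adjusted p 0.0235). Both liver calls were lost with all 360 libraries, and the latter without animal 503 (adjusted p 0.0624). In the heart it rose with 1,4-DCB. At 150 ppm it was at 73.9, 270, 294, 327 and 346 CPM against 75.1 to 129.1 (median 104; 1.39, SE 0.35, adjusted p 0.00309), so 4 animals lay above every control and animal 404 below. At 400 ppm it was at 111.5, 165, 170, 324 and 371 CPM (1.19, SE 0.35, adjusted p 0.0169), a call lost on leaving out either of 2 animals.

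Fbn1 encodes fibrillin, the core of elastic microfibrils. It was lower in the lung at 10 ppm 1,2-DCB, at 68.5, 71.3, 71.6, 75.0 and 93 CPM against 85.9 to 150 (median 110; -0.63, SE 0.15, adjusted p 0.0149). At 30 ppm it was at 46.1, 58.3, 78.2, 89.6 and 91.2 CPM (-0.69, SE 0.16, adjusted p 0.00212). In the ovary at 250 ppm it was at 154.3 to 209 CPM (median 198) against 200 to 283 (median 236; -0.35, SE 0.11, adjusted p 0.0168). The lung and ovary calls are among those lost with Dbp as a covariate, and the lung call at 10 ppm was also lost without animal 201.

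Mmp14 is a membrane-bound metalloproteinase that cuts collagen and activates Mmp2, a gelatinase made by stromal cells. Mmp14 fell in 3 tissues with 1,2-DCB, and with Dbp as a covariate none of its 4 calls held. In the lung at 30 ppm it was at 21.3, 21.6, 28.5, 28.6 and 29.7 CPM, below all 10 controls at 36.9 to 66.8 (median 43.5; fold change 1.82 downward, log2 -0.86, SE 0.17, adjusted p 0.000441). At 100 ppm the lungs were at 26.7, 27.4, 33.1, 36.3 and 39.1 CPM (-0.54, SE 0.17, adjusted p 0.0405), a call lost on leaving out any of 7 of the 15 libraries. In the liver at 30 ppm it was at 11.1, 17, 17.4, 18.9 and 20.02 CPM, below all 9 controls at 20.5 to 32.1 (median 25.3; -0.58, SE 0.16, adjusted p 0.00874), a call lost without animal 305 (adjusted p 0.0638). In the ovary at 250 ppm it was at 168 to 206 CPM (median 181) against 182 to 309 (median 251; -0.45, SE 0.12, adjusted p 0.00548).

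Mmp2 moved in opposite directions in the liver. At 250 ppm 1,2-DCB it was at 4.94 to 20.01 CPM (median 10.5) against 4.61 to 11.1 (median 6.78; 0.72, SE 0.19, adjusted p 0.00152). With 1,4-DCB at 400 ppm its levels were 4.49, 5.06, 5.29, 5.87 and 6.47 CPM, below all 7 controls at 6.97 to 10.3 (median 8.99; -0.69, SE 0.22, adjusted p 0.0129). The fibroblast marker sums given above moved in the same 2 directions, and their part was not tested. In the heart at 150 ppm 1,4-DCB Mmp2 was at 142.1, 145.2, 225, 227 and 265 CPM against 112.6 to 184 (median 147.7; 0.44, SE 0.15, adjusted p 0.0209), a call among those lost without animal 405.

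The ADAM proteases release cell-surface proteins. Adam10, the main sheddase of Notch and cadherins, rose in the liver at 250 ppm from 31.3 to 46 CPM (median 36.6) to 37.7 to 56 (median 46.8; 0.33, SE 0.09, adjusted p 0.00107), a call lost with all 360 libraries. Adam8, found mainly on leukocytes, was close to 0 in liver controls (0 to 0.542 CPM, 0 to 8 counts) and reached 1.54 CPM at 250 ppm (0 to 32 counts, median 0.889 CPM; adjusted p 0.0102). The Adam8 call was lost with DESeq2 and with Dbp as a covariate.

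Timp1 encodes an inhibitor of metalloproteinases that injury and inflammation induce in many tissues. In the liver at 250 ppm 1,2-DCB it was at 1.92, 2.09, 5.97, 10.7, 14.9 and 22.7 CPM, against 0.413 to 1.95 in the 9 controls (median 0.900), a fold change of 9.77 (log2 3.29, SE 0.52, adjusted p 2.86e-07). Only the lowest exposed animal met the control range. Animals 503, 508 and 507, high in fibrillar collagen, were also the highest here. The liver change at 400 ppm 1,4-DCB was 0.71 (SE 0.57, adjusted p 0.377).

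In the heart Timp1 rose at 150 ppm 1,4-DCB, to 14.8, 32.9, 45.5, 49.5 and 73.2 CPM (1.27, SE 0.33, adjusted p 0.00377), and at 400 ppm, to 20.4, 33.3, 40.7, 50.8 and 76.3 CPM (1.3, SE 0.33, adjusted p 0.00667), from 13.2 to 21.9 in controls (median 17.8); these calls were lost without animals 405 and 503 of the 2 groups. At 250 ppm 1,2-DCB the heart values were 19.3 to 81.3 CPM (median 36.6) against 16.4 to 43.8 (median 22.3), a difference of 0.83 that did not pass (SE 0.31, adjusted p 0.0772). In the lung at 250 ppm Timp1 was at 57.2 to 496 CPM (median 72.7) against 46 to 89.2 (median 58.9; 1.24, SE 0.24, adjusted p 3.34e-05), but without animal 506R the change was 0.33 (adjusted p 0.15). In the ovary it was lower at 250 ppm, at 248 to 961 CPM (median 624) against 386 to 4321 (median 1363; -1.56, SE 0.55, adjusted p 0.04), a call lost on leaving out any of 10 of the 17 libraries and with Dbp as a covariate.

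Timp3, a matrix-bound inhibitor, rose in the heart at 400 ppm 1,4-DCB to 151.6, 171, 178, 196 and 256 CPM, above all 10 controls at 74.6 to 145.7 (median 121; 0.73, SE 0.20, adjusted p 0.0104). At 150 ppm it was at 118.5, 119.9, 178, 187 and 245 CPM (0.57, SE 0.20, adjusted p 0.0291). The 400 ppm call was lost with Dbp as a covariate (adjusted p 0.063) and without animal 503 (0.0771). In the liver it rose at 30 ppm 1,2-DCB to 4.37, 10.6, 12.8, 13.9 and 17.8 CPM (0.97, SE 0.27, adjusted p 0.0113), a call lost without animal 305 (adjusted p 0.0849). At 250 ppm the livers were at 4.86 to 12.7 CPM (median 9.73) against 3.53 to 8.83 (median 5.88; 0.67, SE 0.26, adjusted p 0.0274), a call lost on leaving out any of 4 of the 15 libraries. Both liver calls were lost with all 360 libraries, in the same-compound fits and with Dbp as a covariate.

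Among the integrins, Itga6, a laminin-binding alpha chain, rose in the liver with both compounds and fell in the kidney and lung. In the liver at 250 ppm 1,2-DCB it was at 7.35 to 12.5 CPM (median 10.8), above all 9 controls at 2.19 to 6.65 (median 4.14), a fold change of 2.53 (log2 1.34, SE 0.22, adjusted p 4.92e-07). With 1,4-DCB at 400 ppm the livers were at 4.60, 5.24, 5.73, 5.88 and 7.62 CPM against 1.26 to 4.87 (median 3.26; 0.87, SE 0.24, adjusted p 0.00356), a call lost with all 360 libraries. In the kidney at 250 ppm it was at 136.5 to 224 CPM (median 172), below the 5 controls at 244, 255, 285, 297 and 329 (-0.70, SE 0.18, adjusted p 0.00555), a call lost with all 360 libraries and with Dbp as a covariate. In the lung at 250 ppm it was at 70.4 to 126.01 CPM (median 93.4) against 97.5 to 143.6 (median 122.9; -0.36, SE 0.14, adjusted p 0.0414), a call lost on leaving out any of 9 of the 16 libraries and with all 360 libraries.

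Itgae, the alpha E chain that holds lymphocytes to epithelial E-cadherin, fell in the lung at 250 ppm 1,2-DCB by more than any other tested member there. The first probe was at 3.41 to 8.03 CPM (median 5.29) against 15.6 to 26.2 in 10 controls (median 19.5; fold change 3.49 downward, log2 -1.80, SE 0.15, adjusted p 4.25e-15). The second was at 0.806 to 6.17 CPM (median 3.39) against 11 to 16 (median 12.7; -1.87, SE 0.22, adjusted p 2.66e-10). Neither probe's ranges overlapped. Neither passed at 400 ppm 1,4-DCB (-0.46, adjusted p 0.0852, and -0.52, adjusted p 0.201).

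Lymphocyte markers (7 probes) summed to 78.6 to 250 CPM (median 143.4) in these lungs and to 110 to 555 (median 161) in controls, and of the 6 genes Cd3g (-0.55) and Cd4 (-0.60) fell. In the kidney at 250 ppm the first Itgae probe was at 0 to 0.498 CPM (0 to 7 counts) against 0.345 to 2.13 (5 to 24 counts; -2.77, SE 0.88, adjusted p 0.0306), a call lost with Dbp as a covariate and on leaving out any of 5 of the 11 libraries, while the second, at 8.18 to 12.8 CPM, did not pass (-0.40, adjusted p 0.159).

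**Figure D4:**
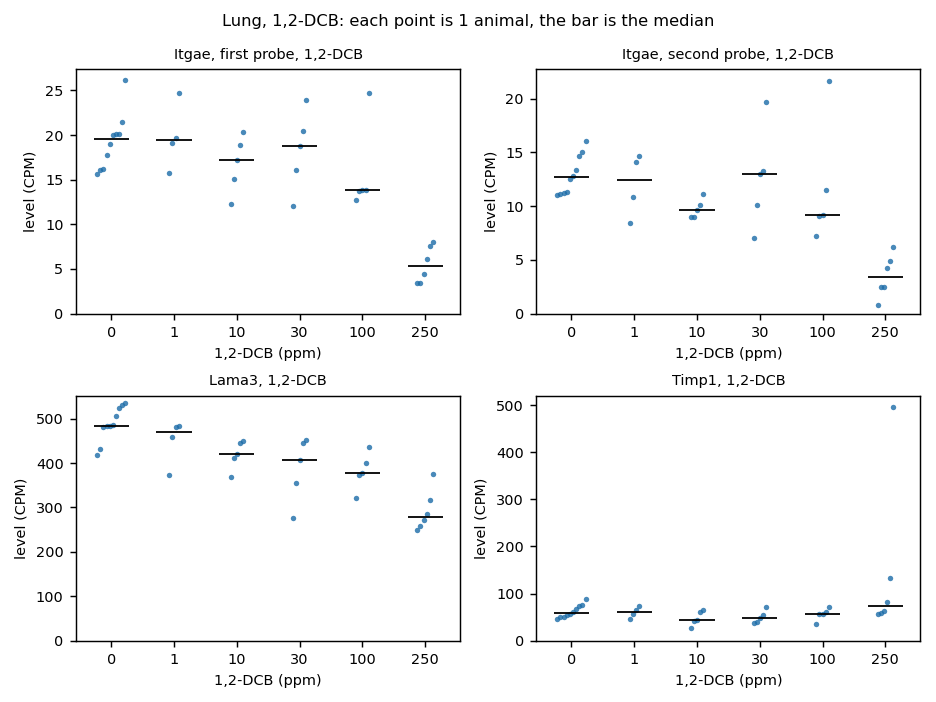
Levels in CPM (y axes, linear from 0) of both Itgae probes, Lama3 and Timp1 in the lung at each 1,2-DCB concentration in ppm (x axes, evenly spaced); each point is 1 animal and the bar the median. At 250 ppm both Itgae probes and Lama3 lie below all 10 controls, and a single animal carries Timp1 at 496 CPM.

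Itgal and Itgb2 form the leukocyte integrin LFA-1. Itgal was lower in the liver at 30 ppm 1,2-DCB (0.717 to 1.72 CPM in 5 animals against 1.18 to 7.53 in controls, median 2.69; -1.25, SE 0.35, adjusted p 0.0105) and at 100 ppm (0.948 to 1.74 CPM; -1.22, SE 0.35, adjusted p 0.00819). The first of these calls was lost with all 360 libraries. Of 6 tested lymphocyte probes, 1 fell in each of these groups, Cd79b (-1.46) at 30 ppm and Cd3g (-1.65) at 100 ppm, and the neutrophil gene S100a8 fell in both (-1.95 and -1.89). S100a8 varied widely in the 9 controls (mean 37.8 CPM, SD 69.4), against means of 9.88 and 10.2 at 30 and 100 ppm. It was also lower at 10 ppm (-2.27), where no member was called. At 400 ppm 1,4-DCB Itgal was at 0.398, 0.653, 0.734, 1.44 and 1.63 CPM against 1.56 to 4.60 (median 2.41; -1.45, SE 0.36, adjusted p 0.0011). Lymphocyte markers in those livers summed to 3.07 to 3.89 CPM against 4.08 to 9.05. Neutrophil markers (6 probes) summed to 206 to 659 CPM there against 4.11 to 36.5, with S100a8 higher by 4.80 as the only one of 3 tested probes called, and the macrophage gene Lyz2 fell by 0.92. The part of these shifts in the Itgal values was not tested. Itgb2 rose in the liver at 250 ppm 1,2-DCB, at 0.223 to 1.47 CPM (median 0.827) against 0 to 0.989 (median 0.281; 1.37, SE 0.56, adjusted p 0.0391). That call was lost on leaving out any of 8 of the 15 libraries (adjusted p up to 0.0948), in the same-compound fit and with Dbp as a covariate. The Itgb2 rise in the lung at 100 ppm (1.09, SE 0.34, adjusted p 0.0374) came from values of 2.90, 3.32, 3.63, 4.18 and 30.2 CPM against 1.60 to 7.38, and without the highest animal, 404, the change was -0.24.

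Itgb1, the beta chain most widely shared among matrix receptors, changed by less than most called members. In the lung at 250 ppm it was at 3094 to 4038 CPM (median 3490) against 3439 to 4502 (median 3913; -0.16, SE 0.05, adjusted p 0.0185), and in the ovary it fell by 0.22 (SE 0.07, adjusted p 0.0237). Both calls were lost with Dbp as a covariate. Itgb5, a vitronectin-binding beta chain, rose in the liver at 250 ppm from 22.7 to 38.3 CPM (median 37.2) to 37.2 to 40.7 (0.25, SE 0.09, adjusted p 0.0224), a call lost with all 360 libraries and on leaving out any of 3 of the 15. In the heart at 400 ppm 1,4-DCB it fell from 36.2 to 49.5 CPM (median 40.0) to 30.7, 31.7, 34.1, 34.5 and 42 (-0.26, SE 0.08, adjusted p 0.0161), a call lost on leaving out either of 2 libraries. Itgb1bp2, a muscle protein known as melusin, was the only heart member that fell at 150 ppm 1,4-DCB, to 50.0, 91.9, 94.5, 100.4 and 107.3 CPM, below all controls at 110.5 to 125.5 (median 116.6; -0.39, SE 0.11, adjusted p 0.00728); animal 405, highest in collagen, was lowest here.

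Other genes of matrix assembly, of its control by TGF-beta, plasmin and related factors, and of integrin signalling were followed as 3 lists of 12, 14 and 15 tested probes. In the liver at 250 ppm 1,2-DCB 5 of 12 assembly probes rose and 2 fell (list median 0.28 against -0.03 for all probes, of which 25.1% rose and 24.6% fell). Lum, a collagen-fibril proteoglycan, rose by 1.19 (SE 0.18, adjusted p 1.01e-07) and Pcolce, which speeds procollagen cleavage, by 0.90 (SE 0.15, adjusted p 5.33e-07). Vtn, the plasma protein vitronectin that hepatocytes secrete, fell by 0.81 (SE 0.07, adjusted p 3.65e-14) and Ecm1 by 0.58 (SE 0.09, adjusted p 4.02e-07).

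Of the control list there, 3 rose and 3 fell: Bsg (0.52), an inducer of metalloproteinases, Plau (1.54), the urokinase that activates plasminogen, and Tgfbr2 (0.63), a TGF-beta receptor, were among the risers, and Plg, plasminogen itself, fell by 0.49. Of integrin signalling, 2 rose, among them the kinase gene Src (1.81, SE 0.34, adjusted p 1e-05), and 5 fell, among them both probes of the caveolar gene Cav1 (adjusted p 1.47e-06 and 0.00246) and the kinase gene Ptk2b (-0.61). At 400 ppm 1,4-DCB the liver had 1 higher and 5 lower assembly probes (median -0.50; 18% of all probes rose and 13.6% fell), led by Ecm1 (-1.10, SE 0.10, adjusted p 1.03e-12) and the proteoglycan gene Bgn (-0.86, SE 0.12, adjusted p 5.11e-08). Of the control list 2 rose and 4 fell, and of signalling 1 rose.

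In the heart at 150 ppm 1,4-DCB 7 assembly probes rose and 1 fell (median 0.64), beside 15.3% and 11.9% of all probes. At 400 ppm 5 rose and 1 fell (median 0.48), beside 8.84% and 4.12%, among them Postn, a matricellular protein of fibroblasts, which rose by 1.58 (SE 0.43, adjusted p 0.0101). In the ovary at 250 ppm 5 assembly probes fell and none rose (median -0.49; 7.70% of all probes fell and 8.22% rose), with Pcolce at -0.61 (SE 0.16, adjusted p 0.00477), Postn at -1.59 and Lox, the collagen crosslinking enzyme, at -0.93. Lox also fell in the lung, by 0.54 at 250 ppm 1,2-DCB (adjusted p 0.00362) and by 0.89 at 400 ppm 1,4-DCB (SE 0.16, adjusted p 0.000171). In the kidney Htra1, a secreted serine protease, fell by 0.80 at 250 ppm (SE 0.07, adjusted p 1.14e-11) and by 0.45 at 400 ppm 1,4-DCB (SE 0.07, adjusted p 0.000166). The list probes were not refitted under the alternatives or with single libraries left out. Among members of the same groups, calls went from 10 to 0 at 150 ppm in the heart without animal 405. At 400 ppm there they went from 9 to 2 without animal 503, and in the ovary from 8 to 0 with Dbp as a covariate.

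The response of each other tissue at the highest concentration was set against that of the liver in a fit over both tissues. At 250 ppm 1,2-DCB the change was lower than the liver's for 14 of 36 members in the kidney (32% of all probes differed), for 8 of 37 in the lung with 1 higher (34.4%), for 12 of 37 in the heart with 1 higher (35%) and for 13 of 37 in the ovary with 2 higher (33.6%). Col1a1 differed from the liver by -2.44 in the kidney, -1.92 in the lung, -2.29 in the heart and -2.71 in the ovary. Itga6 differed by -2.03 in the kidney (SE 0.25, adjusted p 5.96e-09), -1.49 in the lung (SE 0.25, adjusted p 1.93e-06), -1.37 in the heart (SE 0.21, adjusted p 3.29e-07) and -1.17 in the ovary. Timp1 differed by -4.77 in the ovary (SE 0.67, adjusted p 2.4e-08) and -2.33 in the heart. Fn1 differed the other way in the lung, by 1.01 (SE 0.29, adjusted p 0.00426).

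At 400 ppm 1,4-DCB 1 of 36 members differed from the liver in the kidney (16.1% of all probes), 4 of 37 in the ovary (17.5%), 10 of 38 in the lung (28%) and 9 of 35 in the heart (25.8%). Itga6 was the kidney's, at -1.21 (SE 0.32, adjusted p 0.00415). In the heart Col4a2 differed by -0.78 (SE 0.15, adjusted p 5.94e-05) and Col4a1 by -0.86, while Fn1 (1.66) and Mmp2 (0.84) differed upward. In the lung Itgal differed by 1.52 (SE 0.37, adjusted p 0.001), Itgb2 by 1.73 and Itga6 by -0.92. With the animal as a replicate block, since the tissues came from the same animals, 45 member tests over the 4 tissues were called at 250 ppm against 51 without, and 20 against 24 at 400 ppm.

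The isomers could be compared at 1 and 10 ppm, the concentrations they share, as the change with 1,2-DCB minus that with 1,4-DCB, over 181 member tests at each concentration. At 1 ppm no member differed by edgeR or DESeq2 (0.00% of all probe tests by edgeR), with 0, 6, 0, 1 and 1 members at an unadjusted p under 0.05 in the liver, kidney, lung, heart and ovary. At 10 ppm 1 member differed (0.641% of probe tests): Itga6 in the liver was at 2.39, 2.72, 3.34 and 3.61 CPM with 1,2-DCB and at 4.09, 4.19, 6.19 and 8.66 CPM with 1,4-DCB. The difference was -1.32 (SE 0.37, adjusted p 0.0491), with an approximate 95% interval from -2.04 to -0.59. DESeq2 also called it, but it was lost with all 360 libraries, without the filter on low counts, with Dbp as a covariate and on leaving out 1,4-DCB animal 203.

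For the rest the intervals were wide. At 10 ppm 54.1% of the 181 intervals lay within 1 log2 unit of no difference and the other 83 reached beyond it, and at 1 ppm 61.9% lay within it. Col4a1 in the heart, lower at 10 ppm of 1,2-DCB, differed between the isomers by -0.52 with an interval from -0.85 to -0.20 and an adjusted p of 0.132. Col1a1 in the liver differed by -0.26 (-1.31 to 0.79, adjusted p 0.903) and Fn1 there by 0.09 (-0.31 to 0.49, adjusted p 0.913). At 30 and 50, 100 and 150, or 250 and 400 ppm the doses differ, and no comparison between the isomers was made.

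The 0 ppm animals of the 2 series were compared as a check on the controls. No member differed in the liver (0.577% of all probes by edgeR) or lung (0.363%) by edgeR or DESeq2, with 4 liver and 3 lung members at an unadjusted p under 0.05. In the kidney 4 of 36 differed (0.879%), in the heart 4 of 35 (1.87%) and in the ovary 8 of 37 (6.16%). In the kidney, control animal 2 of the 1,4-DCB series stood apart in all 4. It had Col1a1 at 1037 CPM where the other 5 had 112.9 to 182, and Col3a1 at 375 against 55.5 to 79.2. Its Col1a2 was at 149.06 against 28.3 to 54.2 and its Timp1 at 402.5 against 2.95 to 5.09. Summed fibroblast markers reached 1036 CPM in that group, the highest in any kidney group, and macrophage markers reached 872 CPM there and 961 at 1 ppm 1,4-DCB. Without that animal none of the 4 was called (adjusted p 0.237 to 0.982).

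In the heart Lama3 was at 1.41 to 7.41 CPM in the 1,2-DCB controls (median 5.90) and at 7.98 to 12.5 in the 1,4-DCB controls (median 9.43), with no overlap (-0.79, SE 0.16, adjusted p 0.00122). In the ovary Itga6 was at 92.3 to 135.3 CPM against 114.8 to 193 (-0.38, SE 0.08, adjusted p 0.00278), and Timp1 at 386 to 4321 CPM (median 1363) against 287 to 1307 (median 303; 1.99, SE 0.49, adjusted p 0.007). The lower ovarian Timp1 at 250 ppm 1,2-DCB is a change from these higher controls.

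The tissues differed in their unexposed levels, given as a description with no test, in CPM on a scale shared by the tissues and over 16 liver, 11 kidney, 20 lung, 20 heart and 20 ovary libraries. For 8 of 37 members the lowest value in the leading tissue exceeded every value elsewhere, beside 35.9% of all probes. Fn1 led in the liver at a median of 7351 CPM, 9.28 times the 792 of the lung, above 390 in the ovary, 181 in the heart and 158 in the kidney. Itgb1bp2 was at 187 CPM in the heart and between 0.516 and 1.55 in the other tissues. Timp3 led in the kidney at 1115 CPM, ahead of the lung at 506, heart at 209, ovary at 86.2 and liver at 14.6.

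Lama3 led in the lung at 372 CPM, followed by the kidney at 75.6, ovary at 41.3, heart at 12.7 and liver at 9.76. The second Lama2 probe was at 115.3 CPM in the heart against 35 in the ovary and less elsewhere. The first Itgae probe led in the lung at 15.6 CPM, against 2.83 in the ovary and 0.426 in the liver, while the second was at 10.1 in the lung and 9.72 in the kidney, an order that the probes do not share. Mmp14 led in the ovary at 95.2 CPM, above the liver at 48.4. Col1a1 ran from 24.8 CPM in the liver through 87.6 in the kidney, 399 in the lung and 411 in the heart to 769 in the ovary, where the ranges of the lung and heart overlapped, and Timp1 from 1.89 in the liver and 2.90 in the kidney to 192 in the ovary. By median, 13 members were highest in the ovary, 11 in the lung, 8 in the heart, 3 in the kidney and 2 in the liver.

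**Figure D5:**
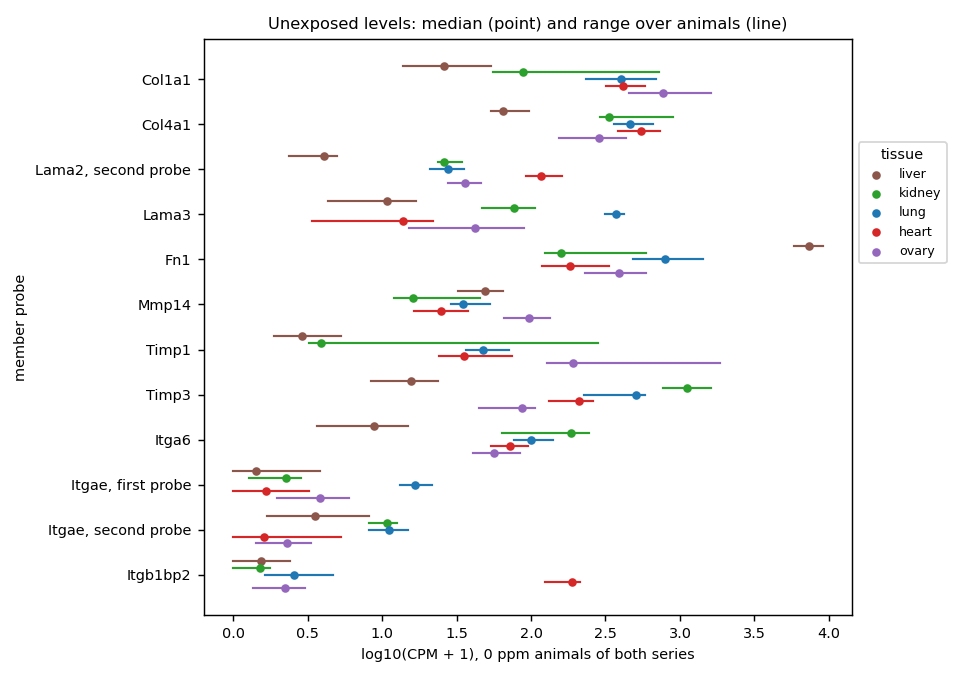
Unexposed levels of 12 member probes (y axis) as log10(CPM + 1) (x axis), with the point at the median and the line from the lowest to the highest 0 ppm animal of both series in each tissue (colours). Fn1 in the liver (median 7351 CPM), Itgb1bp2 in the heart (187) and the first Itgae probe in the lung (15.6) stand to the right of every other tissue.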

How the data were processed

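Probe counts of TempO-Seq libraries (S1500+ panel) were taken from the deposited count table of the whole series, whole numbers per probe and library. Per the submitters' processing notes reads were aligned with Bowtie 1.3.1; the counting rule and build are not given in the sources used here. In the deposited counts 59 probes, none of them a member, are whole multiples of a common factor. Of 360 libraries, 34 that the labels mark as not used were left out (21 kidney, 11 liver, 2 lung), and no 2 libraries of a group were identical over 1005 pairs.

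In each tissue the counts were fitted in edgeR 4.0.16 (R 4.3.3; TMM scaling, filterByExpr, quasi-likelihood test, adjusted p under 0.05) over all groups, with no covariate. CPM divide counts by the TMM-scaled library size. Of the 39 members, 35 were tested in the liver and heart, 36 in the kidney, 38 in the lung and 37 in the ovary; Mmp1a passed the filter in no tissue and Col2a1 in the lung only. The self-test on simulated counts ran before the fits. Collection time is not given, so Dbp was tried as a covariate.

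The members, gene lists and alternatives were chosen with earlier results of these data known. Genes named are up to 12 higher and 12 lower by p at the highest concentrations, up to 6 elsewhere, up to 4 per pathway list, up to 3 per tissue for levels, and a fixed set of common matrix genes. Alternatives were DESeq2 1.42.0, RLE scaling, no filter, all 360 libraries, same-compound fits, undone factors, the Dbp covariate, and leaving out each library. For differences between tissues, the animal was also fitted as a block in edgeR, because the tissues come from the same animals per the labels. Deviations of the tissues of an animal correlated with a median of 0.0115 to 0.0542 over 20 to 31 animals.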

Additional observations from a re-analysis of the deposited data

Results flagged for a closer look

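Each group of 4 to 10 animals was searched for an animal standing apart in the members called there, by Dixon's test. This marked 22 of 177 pairs of a probe and a group, 12.4%. The test's nominal rate of about 1 in 20 holds for normally distributed values. Here CPM were not log-transformed and only called members were searched, so that rate is no measure of chance. Pairs also share animals and are not independent. In the liver controls of the 1,2-DCB series animal 4 was highest in Col1a1 (25.4 CPM), Col4a2 (59.1) and Itgal (7.53), animal 1 in Adam8 (0.542) and animal 8 in Mmp2 (11.1). In the kidney controls of the 1,4-DCB series animal 2 was highest in Col1a1 (1037 CPM), Col1a2 (149.06), Col3a1 (375) and Timp1 (402.5).

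In the lung control animal 9 of the 1,2-DCB series was highest in Col3a1 (392 CPM) and Col5a1 (165), animal 203 in Fbn1 at 10 ppm (93.02), animal 404 in Itgb2 at 100 ppm (30.2) and animal 506R in Timp1 at 250 ppm (496). In the heart at 150 ppm 1,4-DCB animal 405 was highest in Col3a1 (538 CPM) and lowest in Itgb1bp2 (49.97), and animal 404 was lowest in Fn1 (73.9). Among heart controls animal 9 of the 1,2-DCB series was highest in Col4a1 (435), and animals 10 and 8 of the 1,4-DCB series were highest in the second Lama2 probe (92.1) and in Lama3 (12.5). Among ovary controls of the 1,4-DCB series animal 10 was highest in Lama3 (205) and animal 1 in Timp1 (1307).

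Of the responses that differed from the liver's, only the called member with the smallest p in each tissue and compound is listed here. At 250 ppm 1,2-DCB these were Itga6 in the heart (-1.37 on the log2 scale), kidney (-2.03) and lung (-1.49), and Timp1 in the ovary (-4.77). At 400 ppm 1,4-DCB they were Col4a2 in the heart (-0.78), Itga6 in the kidney (-1.21) and ovary (-1.08) and Itgal in the lung (1.52). Between the isomers at 10 ppm Itga6 differed in the liver (-1.32).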

How the results depend on the processing

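Of 172 alternative counts of called members, 31 differed by over 1.5 times from the value reported. With all 360 libraries the counts were 11 in the liver at 250 ppm (17 reported), 13 at its lower 1,2-DCB concentrations (4), 2 at 400 ppm (4), 1 at its lower 1,4-DCB concentrations (0), 10 in the kidney at 250 ppm (3), 4 at its lower 1,2-DCB concentrations (0), 6 and 0 for the isomers at 1 and 10 ppm (0 and 1) and 14 for tissue differences at 400 ppm (24). With libraries of the same compound only they were 9 in the liver at 400 ppm, 9 in the kidney at 250 ppm, 3 at its lower 1,2-DCB concentrations, 4 at the lower 1,2-DCB concentrations in the lung (11), 5 in the lung at 400 ppm (1) and 1 at the lower 1,2-DCB concentrations in the ovary (0). DESeq2 gave 2 at the lower 1,2-DCB concentrations of the kidney and of the ovary, 1 at the lower 1,4-DCB concentrations of the kidney, 2 in the lung at 400 ppm and 2 for the isomers at 10 ppm. Undoing the common factors gave 1 at the kidney's lower 1,4-DCB concentrations, and no filter gave 0 for the isomers at 10 ppm.

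With Dbp as a covariate the counts were 2 and 3 at the lower 1,4-DCB concentrations of the liver and kidney, 0 in the lung and 0 in the heart at the lower 1,2-DCB concentrations (11 and 5), 3 in the lung at 400 ppm (1), 5 in the heart at 250 ppm (3), 19 in the heart at 400 ppm (9), 0 in the ovary at 250 ppm (8) and 0 for the isomers at 10 ppm. Leaving out each library gave 13 to 22 in the liver at 250 ppm, 2 to 5 at its lower 1,2-DCB concentrations, 3 to 5 at 400 ppm and 0 to 1 at its lower 1,4-DCB concentrations. It gave 2 to 5 in the kidney at 250 ppm, 0 to 2 at 400 ppm and 0 to 1 at its lower 1,4-DCB concentrations; 6 to 11 in the lung at 250 ppm, 7 to 13 at its lower 1,2-DCB concentrations and 0 to 1 at 400 ppm; 2 to 4 in the heart at 250 ppm, 3 to 7 at its lower 1,2-DCB concentrations, 2 to 11 at 400 ppm and 0 to 15 at its lower 1,4-DCB concentrations; 1 to 8 in the ovary at 250 ppm (1 without animal 506R, Mmp14); 0 to 2 for the isomers at 10 ppm and 11 to 19 for the controls.

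Of 175 single calls under 1130 alternatives, left-out libraries apart, 985 kept direction and call, 2 turned and the rest lost the call. With left-out libraries included, direction turned for Timp1 between kidney controls without animal 2 (0.094), Itgb2 in the lung at 100 ppm without animal 404 (-0.24), and, with Dbp, Col4a1 (7.469e-05) and Itgb1 (0.012) in the ovary at 250 ppm. Of 100 calls with each library left out, 35 held every time. The cause of these shifts was not tested. With the animal as a replicate block the tissue differences numbered 45 at 250 ppm and 20 at 400 ppm, and 60 of the 75 were shared; in the kidney at 400 ppm there were 3 against 1. Low counts limit Adam8, Itgb2 and Itgae in liver and kidney.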
